A study of Mus musculus with 15 samples.

Results

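Immunoglobulin genes were followed in the colon mucosa of 15 mice, 1 mouse to 1 microarray. A gene-name search for probes whose name begins with Igh, Igk or Igl, or is Igj or Jchain, found 13 probes with 11 names, of which 5 probes gave a signal well above background on 5 or more of the 15 arrays. Most immunoglobulin probes of this array carry a transcript identifier in place of a gene symbol, so 224 further probes were added, after the files had been seen, because their description names an immunoglobulin heavy, kappa or lambda gene. Together these were 237 probes for 208 genes, and 74 probes for 66 genes were kept, out of 33466 kept among the 56504 probes of the whole array.

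The mice were female Balb/cJ animals, 8 weeks old at the start, in 3 groups of 5. Mice of the DSS filgotinib group drank 4% dextran sulfate sodium (DSS, a detergent-like polymer that injures the colon lining) for 3 cycles of 4 days, separated by washouts of 3 days, and were gavaged daily with 30 mg/kg filgotinib, an inhibitor of the kinase JAK1. Mice of the DSS vehicle group had the same DSS cycles and the vehicle alone. Mice of the water group had no DSS; one label gives them the vehicle, while the design text mentions drinking water alone. The scraped mucosa of the last 30 mm of colon was used, 100 ng of its RNA was labelled with a single dye, and every value below is a probe signal divided by the 75th percentile of its own array. That percentile lay between 552 and 813 intensity units, and 50.2% to 62.1% of the probes of an array were well above background. All 10 colon epithelium markers that had been listed were kept. The array reads all cells of the scraping together, so fewer antibody-making cells and less immunoglobulin RNA per cell cannot be told apart.

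An antibody is built from paired heavy and light chains. Each chain joins a variable region, assembled from gene segments that differ between B cell clones, to a constant region, and the heavy-chain constant gene sets the class: Ighm for IgM, Ighd for IgD, the Ighg genes for IgG, Ighe for IgE and Igha for IgA. Naive B cells carry IgM and IgD on their surface, and plasma cells secrete. In the gut wall most plasma cells make IgA, which the J chain (Jchain) links into dimers before the receptor Pigr carries it across the epithelium.

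The classes were read by few probes each, and 3 of these probes are shown because later results turn on what they read. The sequences come from the deposited files, 5′ to 3′, all on the minus strand of mm9. The Igha probe (chr12:114496985-114497044) reads the IgA heavy chain, and its capitals mark the longest run it shares with the probe used for Ighm, 10 bases. The probe named Igh-VJ558 (chr12:114498348-114498407) carries the name of a heavy variable family. The Ighg3 probe (chr12:114596396-114597927) reads the IgG3 heavy chain.
Igha: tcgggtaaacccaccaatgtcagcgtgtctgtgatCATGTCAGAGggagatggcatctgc
Igh-VJ558: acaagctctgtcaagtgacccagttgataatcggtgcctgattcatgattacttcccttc
Ighg3: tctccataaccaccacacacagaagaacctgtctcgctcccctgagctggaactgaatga
The Igh-VJ558 probe starts 1363 bases from the Igha probe. The 103 heavy variable probes with other names all start at or beyond position 114816899 of chromosome 12, so this probe lies among the constant-region probes whatever its name says. The Ighg3 probe is 60 bases long but its coordinates span 1532 bases, so it joins the sequence on both sides of a gap. Heavy-chain genes make secreted and membrane forms by joining different 3′ exons. Which form this probe reads was not tested, so its level may not stand for both. No mm9 gene models were used here, so exons and untranslated regions are not given.

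The lambda variable gene Iglv1 shows how closely members can resemble each other. Its 2 kept probes (chr16:19063348-19085165 and chr16:19085111-19085170) share a run of 54 bases, in capitals, and cannot count as separate measurements.
Iglv1, first probe: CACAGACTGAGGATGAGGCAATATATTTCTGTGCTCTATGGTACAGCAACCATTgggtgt
Iglv1, second probe: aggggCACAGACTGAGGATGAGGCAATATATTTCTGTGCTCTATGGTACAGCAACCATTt
Of the 58 kept variable-segment probes, 20 share a run of 30 bases or more with another immunoglobulin probe, so RNA of near-identical segments can bind more than one probe.

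Detection differed by class. Of the 15 heavy constant probes, 10 were kept, of 106 heavy variable probes 13, of 106 kappa variable probes 43, of 3 lambda variable probes 2, and all 2 kappa constant, 3 lambda constant and 1 J chain probes. On none of the 15 arrays were 95 of the 237 probes well above background, and 68 more were so on 1 to 4 arrays. The single probes for Ighg1 (IgG1), Ighe (IgE) and the surrogate light chain Igll1 were among those at 0 arrays, so these genes have no level here. A second Igha probe, which starts at position 114493535, was well above background on 1 array only. No probe was named Ighg2a. Whether probes named Ighg2c read RNA of that gene or of Ighg2a in these Balb/cJ mice was not tested. Nor was the match of the variable-segment probes to Balb/cJ sequence, so the part of probe match in these detection counts is not known.

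IgA RNA varied far more between mice than between groups. The Igha probe read 4.70, 57.6, 118, 44.6 and 4.13 times the 75th percentile in the 5 DSS filgotinib mice. It read 6.85, 9.70, 13.6, 13.2 and 102 times in the DSS vehicle mice, and 101, 14.5, 22.8, 16.5 and 58.5 times in the water mice. Each group held at least 1 mouse above 100 times, the lowest mice were DSS filgotinib 1 and 5, and the groups overlapped throughout. The highest mouse stood 28.5-fold above the lowest. In the fit across all kept probes (limma with Benjamini-Hochberg adjustment), DSS vehicle against water gave a log2 fold change of -0.94 ± 0.99 (SE; 95% interval -3.06 to 1.17; adjusted p = 0.542). DSS filgotinib against DSS vehicle gave 0.45 (interval -1.66 to 2.57; adjusted p = 0.807), and DSS filgotinib against water gave -0.49 (interval -2.61 to 1.63; adjusted p = 0.795). For the first comparison the interval runs from 0.12-fold to 2.25-fold, so 5 mice a group left a change of that size unresolved.

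The J chain, which IgA and IgM share, followed nearly the same order of mice. Jchain read 0.220, 2.85, 6.34, 2.14 and 0.213 times the 75th percentile in DSS filgotinib mice, 0.378, 0.436, 0.645, 0.606 and 5.55 times in DSS vehicle mice, and 6.39, 0.902, 1.32, 0.848 and 3.30 times in water mice. Its range was 30.0-fold, and DSS vehicle against water gave -1.18 ± 1.01 (SE; adjusted p = 0.449). The kappa light chain constant gene Igkc read 1.90, 12.4, 28.9, 10.8 and 1.69 times in DSS filgotinib mice, 3.14, 2.99, 4.79, 4.18 and 22.5 times in DSS vehicle mice, and 25.4, 4.33, 7.05, 4.57 and 16.5 times in water mice. As with Igha, the high mice were DSS filgotinib 3, DSS vehicle 5 and water 1, and no group stood apart (DSS vehicle against water -0.76 ± 0.82, adjusted p = 0.557). The probe named Igh-VJ558 read 0.0459, 0.701, 1.46, 0.372 and 0.0151 times in DSS filgotinib mice, 0.0564, 0.0567, 0.0747, 0.0971 and 0.982 times in DSS vehicle mice, and 1.46, 0.127, 0.305, 0.207 and 0.690 times in water mice. It was well above background in 3 of 5 DSS filgotinib mice, so the values of DSS filgotinib 1 and 5 are upper bounds, and in all mice of the other groups. Its fitted change in DSS vehicle against water was -1.70 ± 1.19 (SE; adjusted p = 0.346).

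DSS vehicle mouse 5 set the position of its group for these genes. Without it, Igha in DSS vehicle against water moved to -1.60 (adjusted p = 0.270) and Jchain to -1.87 (adjusted p = 0.203), still short of the threshold of 0.05. Between DSS filgotinib and DSS vehicle the values without it were 1.11 for Igha (adjusted p = 0.495) and 1.16 for Jchain (adjusted p = 0.481). This mouse was not low or high in the share of its probes well above background (55.4%).

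**Figure D1:**
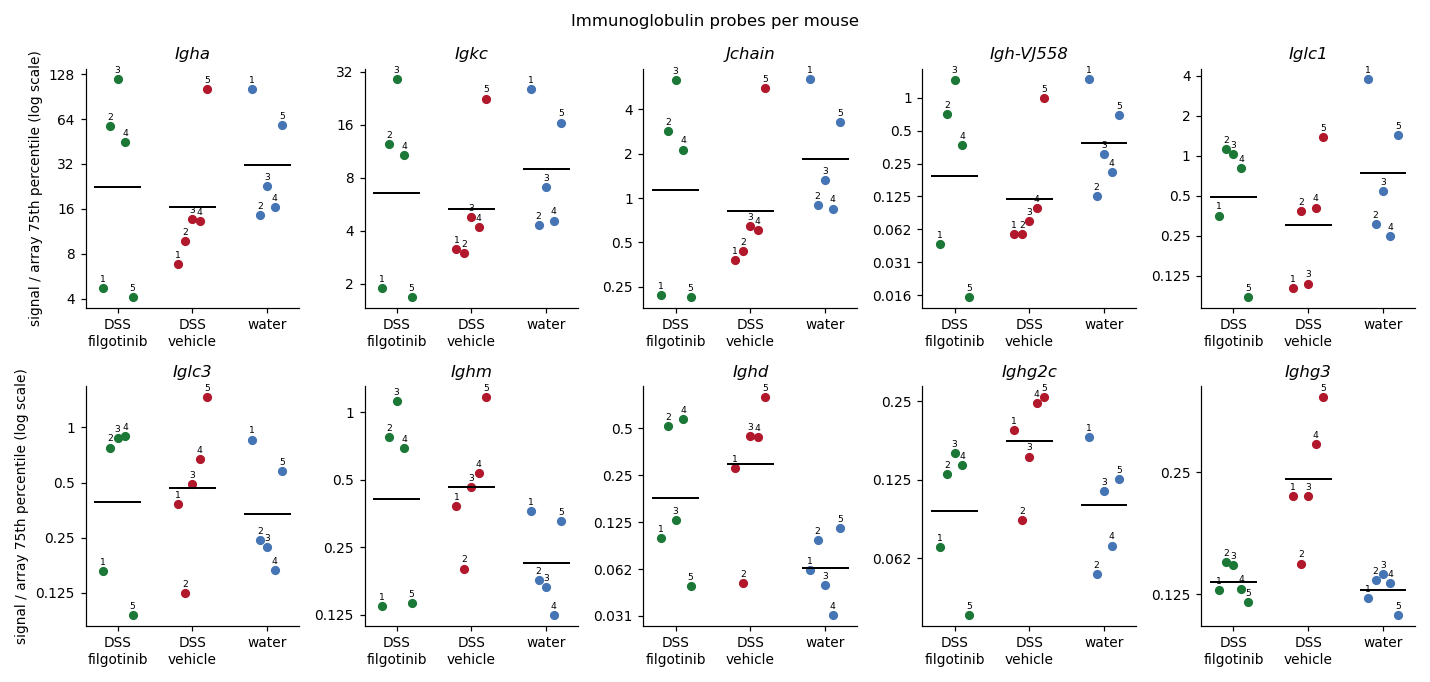
Signal over the array's 75th percentile (log scale) for 10 immunoglobulin probes, each the brightest of its gene, by group; points are mice with their numbers, and the black line is the geometric mean. The groups overlap for all but Ighg3 in DSS vehicle against water, and DSS filgotinib 1 and 5 sit lowest for Igha, Igkc and Jchain.

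The spread between mice of the same group was wide in nearly the whole family. The pooled within-group SD of the 74 kept probes had a median of 1.26 on the log2 scale, against 0.189 over all 33466 kept probes. It exceeded the 90th percentile of all kept probes, 0.488, for 65 of the 74. Only 16 of the 74 were well above background on all 15 arrays, against 27133 of the 33466 kept probes. Probes of like brightness were not compared, so the part of dim signal in this spread was not tested. The SD of Igha, 1.70, was larger than that of 99.7% of kept probes, that of Jchain, 1.75, larger than 99.8%. Ighg3, at 0.316, was the narrowest heavy constant probe.

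**Figure D2:**
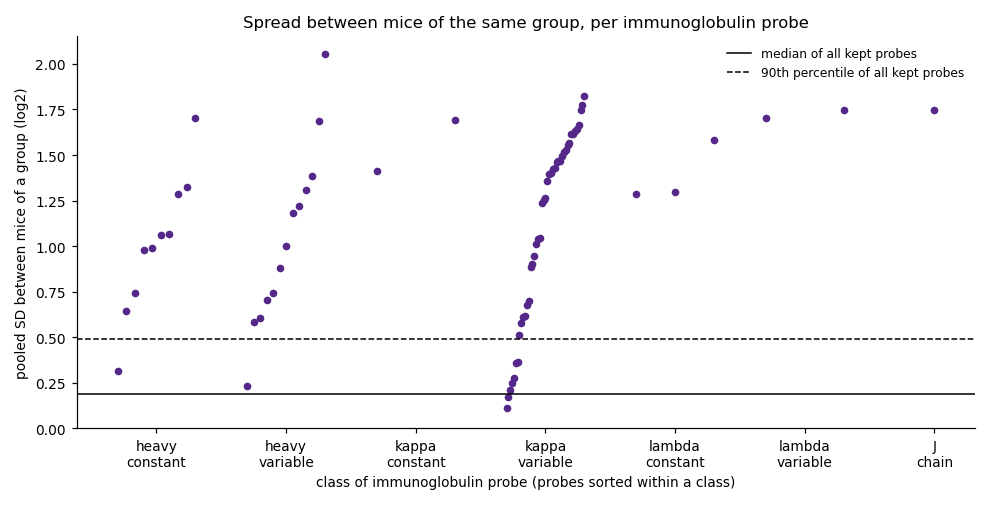
Pooled SD between mice of the same group (log2 scale) for each kept immunoglobulin probe, sorted within its class. The lines mark the median (0.189) and the 90th percentile (0.488) of all kept probes, not matched for brightness. Above the upper line lie 65 of the 74 immunoglobulin probes.

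The Ighg3 probe, for which secreted or membrane form was not assigned, was the single immunoglobulin readout that passed the test. Ighg3 read 0.128, 0.150, 0.148, 0.129 and 0.119 times the 75th percentile in DSS filgotinib mice, 0.219, 0.149, 0.218, 0.294 and 0.382 times in DSS vehicle mice, and 0.123, 0.136, 0.140, 0.133 and 0.111 times in water mice. All 5 DSS vehicle mice exceeded all 5 water mice, whereas DSS vehicle 2 lay within the range of the DSS filgotinib mice. Ighg3 rose in DSS vehicle against water by 0.91 ± 0.19 on the log2 scale (SE; limma adjusted p = 0.00559), a 1.87-fold difference. It fell in DSS filgotinib against DSS vehicle by 0.84 ± 0.19 (SE; adjusted p = 0.0148). DSS filgotinib against water gave 0.068 (interval -0.33 to 0.47; adjusted p = 0.855). These comparisons share mice and are not independent of each other. A second Ighg3 probe, well above background on 4 arrays, was not kept.

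The arrays lay on 6 slides, and only 2 slides held mice of different groups. On slide 4 the 1 DSS vehicle mouse, number 2, exceeded the 2 water mice by 0.25 in Ighg3, and with slide as a fixed block the rise in DSS vehicle against water was 0.25 (adjusted p = 0.753). On slide 2, Ighg3 was -1.07 in the 2 DSS filgotinib mice relative to the 3 DSS vehicle mice, and the blocked fit gave -1.07 (adjusted p = 0.0454). With slide as a random block the Ighg3 calls stood. The fall in DSS filgotinib against DSS vehicle missed the threshold with normexp background correction (-0.43, adjusted p = 0.0543) and in a fit of those 10 mice alone (adjusted p = 0.0559). The slide's part in the first comparison was not tested beyond these values.

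Read against the whole array, 1 called member of 74 is few. In DSS vehicle against water 1 member probe rose where 8.72% of all kept probes rose, and 0 fell where 8.78% of all fell. For DSS filgotinib against DSS vehicle the counts were 0 that rose (5.58% of all) and 1 that fell (4.28% of all). For DSS filgotinib against water they were 0 that rose (4.56% of all) and 0 that fell (4.06% of all). At an unadjusted p under 0.05 there were 6, 3 and 2 member probes in the 3 comparisons, all counts from limma. The share of all kept probes under that unadjusted threshold was not counted, so these 3 counts have nothing to be read against. Of the calls over all probes, 49.8%, 56.6% and 52.9% were rises in the 3 comparisons, and with arrays centred on their medians these shares were 32.9%, 72.6% and 39.9%. Quantile normalization and the authors' deposited values changed the third share to 40.5% and 40.8%.

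Although few probes were called, the classes leaned in different directions in DSS vehicle against water. Of the 10 heavy constant probes 9 had a positive fitted change, with a median of 1.02, and Igha was the negative one. Of the 43 kappa variable probes 37 were negative, with a median of -0.70, and of the 13 heavy variable probes 12 were negative, with a median of -0.42. Classes go by name, so the heavy variable probes include the Igh-VJ558 probe that lies among the constant-region probes. Both kappa constant probes, both lambda variable probes and the J chain were negative too. Over all 74 the median was -0.56, with 56 negative, beside a median of 0.021 over all kept probes. These counts describe probes that share mice, and in part sequence, and no test was made of them. Segments were kept by detection. Of 214 variable-segment probes, 43 to 95 were well above background in water mice, against 15 to 64 in DSS vehicle mice. Among the kept variable probes, 4 were well above background on no array of 1 group. The part of this filter in the lean was not tested. With slide as a fixed block, which rests on 2 slides, several heavy constant probes turned negative: Ighm was -0.22, Ighd -0.56, Ighg2b -1.04 and Ighg2c -0.45, none of them called.

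The same classes leaned the other way in DSS filgotinib against DSS vehicle, a comparison that uses the same DSS vehicle mice and the same filter. There 9 of the 10 heavy constant probes were negative, with a median of -0.67, and 38 of the 43 kappa variable probes were positive, with a median of 0.52. The median over all 74 was 0.33, against -0.0054 over all kept probes. DSS filgotinib against water had a median of -0.13 with 46 of 74 negative, against 0.019 over all kept probes.

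IgD and IgM probes were 4 of the 6 with an unadjusted limma p under 0.05 in DSS vehicle against water, a count with no share of all probes beside it. Ighd, carried by naive B cells, read 0.0986, 0.518, 0.129, 0.572 and 0.0486 times the 75th percentile in DSS filgotinib mice, 0.279, 0.0510, 0.449, 0.440 and 0.790 times in DSS vehicle mice, and 0.0613, 0.0960, 0.0494, 0.0318 and 0.114 times in water mice. Of the DSS vehicle mice 4 lay above every water mouse and mouse 2 lay among them. The fitted difference was 2.21 ± 0.77 (SE), 4.62-fold, at an adjusted p of 0.0616, which missed the threshold. Without DSS vehicle mouse 2 it was 2.84 (adjusted p = 0.0141), and without DSS filgotinib mouse 4 or 5, which alter the shared spread alone, the adjusted p was 0.0494 or 0.0478. On slide 4, which holds that mouse 2 beside 2 water mice, Ighd was -0.56. Ighd in DSS filgotinib against DSS vehicle gave -0.72 (adjusted p = 0.584).

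IgM was read by 3 kept probes. The brightest Ighm probe read 0.137, 0.774, 1.12, 0.694 and 0.141 times in DSS filgotinib mice, 0.380, 0.201, 0.463, 0.533 and 1.17 times in DSS vehicle mice, and 0.361, 0.179, 0.166, 0.125 and 0.326 times in water mice. Again 4 of 5 DSS vehicle mice lay above every water mouse. The fitted difference was 1.13 ± 0.62 (SE; adjusted p = 0.220) for this probe, 1.44 (adjusted p = 0.0934) and 1.64 (adjusted p = 0.0828) for the others. No Ighm probe passed in any comparison.

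The other IgG classes and the lambda chains did not pass the test either. The brightest probe named Ighg2c, whose gene in this strain is not settled, read 0.0687, 0.131, 0.158, 0.142 and 0.0379 times in DSS filgotinib mice, 0.194, 0.0875, 0.153, 0.246 and 0.259 times in DSS vehicle mice, and 0.182, 0.0543, 0.113, 0.0698 and 0.125 times in water mice. DSS vehicle mouse 2 was again the low one of its group, and the difference from water was 0.82 ± 0.43 (SE; adjusted p = 0.207). Ighg2b, well above background on 7 arrays, gave 0.64 (adjusted p = 0.472) in DSS vehicle against water. Of the lambda constant genes, Iglc1 gave -1.31 (adjusted p = 0.344) and Iglc3 0.47 (adjusted p = 0.703). The intervals ran from -3.28 to 0.66 for Iglc1 and from -1.14 to 2.09 for Iglc3, so neither direction was settled.

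**Figure D3:**
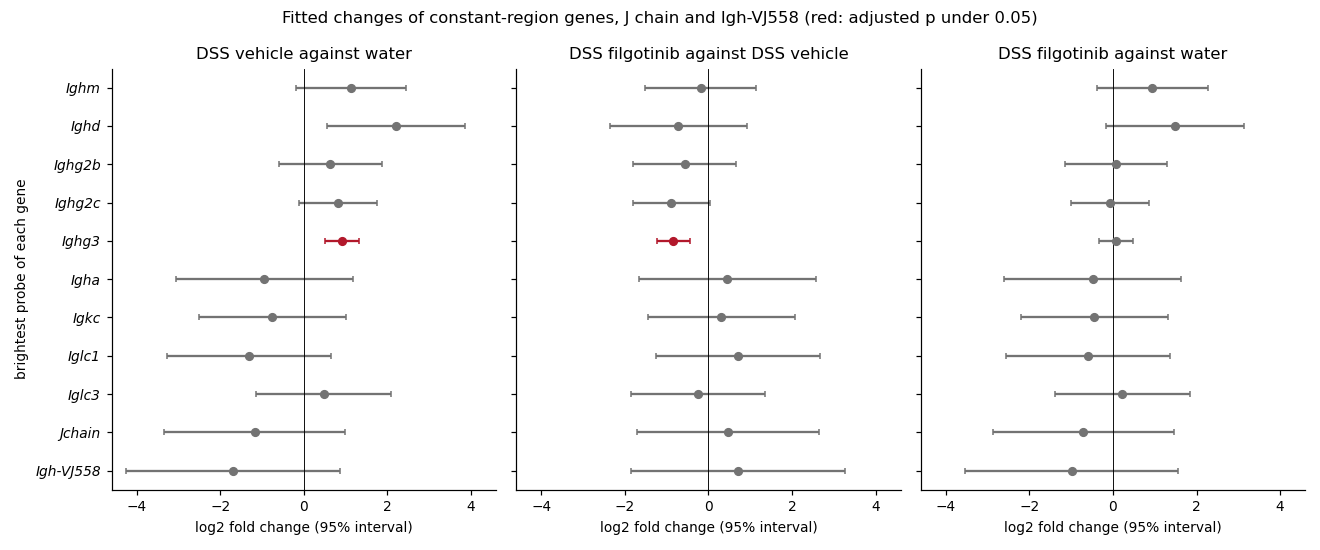
Fitted log2 fold change with its 95% interval for the brightest probe of each constant-region gene, the J chain and the Igh-VJ558 probe in the 3 comparisons; red marks an adjusted p under 0.05. Ighg3 alone is red, at 0.91 in DSS vehicle against water and -0.84 in DSS filgotinib against DSS vehicle, and the intervals of Igha, Igkc and Jchain span several log2 units.

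The heavy-chain classes were then set against each other within each mouse, which cancels only a change of equal size in both probes. The log2 difference between the Ighm and the Igha probe is given relative to its mean in water mice, since levels of 2 probes cannot be compared. It was 2.12, 1.00, 0.50, 1.21 and 2.35 in DSS filgotinib mice, 3.05, 1.62, 2.34, 2.59 and 0.78 in the DSS vehicle group, and -0.91, 0.88, 0.12, 0.17 and -0.27 in water mice. Every DSS mouse lay above 4 of the 5 water mice, and water mouse 2 lay above DSS vehicle 5 and DSS filgotinib 3. The ratio of IgM to IgA RNA was thus higher in DSS vehicle than in water mice by 2.07 on the log2 scale, 4.21-fold, with SDs of 0.89 and 0.65 (n = 5 each; exact two-sided permutation p = 0.0159). It was also higher in DSS filgotinib than in water mice, by 1.44, 2.71-fold, with SDs of 0.77 and 0.65 (n = 5 each; exact permutation p = 0.0159). DSS filgotinib against DSS vehicle gave -0.64 (exact permutation p = 0.254). Within the water and the DSS filgotinib groups the Ighm minus Igha difference fell in exactly the order in which Igha rose. DSS vehicle mice followed this order except for mouse 2. The difference is therefore not independent of the Igha level.

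Adjusted over the 6 such tests that were run, both differences from water had p = 0.0476 (exact permutation tests). With the 3 tests of IgG1 against IgA that had been planned but could not be run counted in, it was 0.0714. The call was often lost with 1 mouse left out: the adjusted p was 0.0952 when any of DSS vehicle 1 to 4 or water 1, 3, 4 or 5 was left out of the first difference, which then lay between 1.83 and 2.40 over all mice left out. For the second it was 0.0952 without DSS filgotinib 1, 2, 4 or 5 or water 1, 3, 4 or 5, with values between 1.21 and 1.67. With 4 mice against 5 the exact p moves in coarse steps. Without DSS vehicle 2 the first difference rose to 2.19, yet its call was lost. Without DSS filgotinib 1, which is not part of it, the first difference stayed at 2.07 and its adjusted p was also 0.0952 (exact permutation). A lost call therefore does not show that the difference rests on the mouse left out. On slide 4 the DSS vehicle mouse exceeded the 2 water mice by 1.70, and on slide 2 the 2 DSS filgotinib mice differed from the 3 DSS vehicle mice by -0.58.

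The balance of light chains did not differ beyond the mice's spread. The log2 difference between Iglc1 and Igkc, relative to water mice, was 1.18, 0.12, -1.22, -0.13 and -0.69 in DSS filgotinib mice, -1.36, 0.64, -1.86, 0.24 and -0.43 in the DSS vehicle group, and 0.84, -0.22, -0.10, -0.60 and 0.076 in water mice. DSS vehicle against water gave -0.55 (exact permutation p = 0.317), DSS filgotinib against DSS vehicle 0.41 (p = 0.524) and DSS filgotinib against water -0.15 (p = 0.770). On the slides with both groups the first was 0.65 and the second 1.17.

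**Figure D4:**
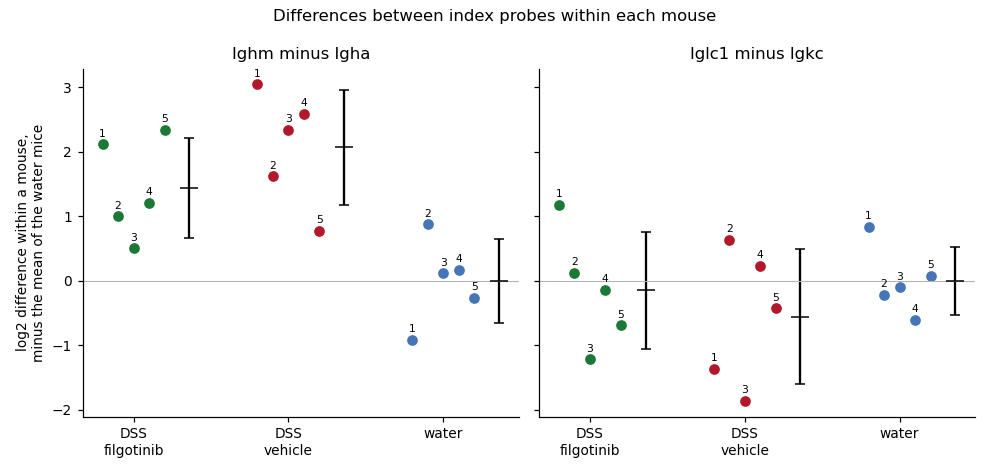
Log2 difference between the Ighm and Igha probes (left) and between the Iglc1 and Igkc probes (right) within each mouse, relative to the mean of the water mice; points are mice, bars the mean and SD. The Ighm minus Igha difference averages 1.44 in DSS filgotinib mice and 2.07 in DSS vehicle mice, and DSS vehicle 5 and DSS filgotinib 3 reach into the range of the water mice.

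Across the 15 mice the family fell into sets that varied together. Igha correlated with Jchain at Pearson's r = 0.996 (Spearman's rho = 0.986) and with the brighter Igkc probe at r = 0.993 (rho = 0.982). Both had a permutation p of 1e-05 for r and for rho, the smallest that 100000 permutations can give, and an adjusted p of 0.000144 for r and 0.000177 for rho over the 230 relations computed. Without the 2 mice farthest from the median, DSS filgotinib 3 and DSS vehicle 5, r was 0.995 for Jchain and 0.991 for Igkc. After removing group means r was 0.998 and 0.993. The widest gap in Igha lay between 22.8 and 44.6 times the 75th percentile: r was 0.986 and 0.972 in the 6 mice above it and 0.985 and 0.975 in the 9 below. The Igh-VJ558 probe also followed Igha (r = 0.978, rho = 0.982, permutation p = 1e-05 for both, adjusted p = 0.000144 and 0.000177). Its r was 0.973 without those 2 mice and 0.945 and 0.922 above and below the gap. It starts 1363 bases from the Igha probe, while the Ighg3 probe starts 99411 bases from Igha. Whether the Igh-VJ558 and Igha probes read the same RNA was not tested. This r therefore cannot count as that of a separate gene.

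The lambda constant genes followed less tightly. Iglc1 had r = 0.863 with Igha (rho = 0.839, permutation p = 2e-05 and 0.00023, adjusted p = 0.000242 and 0.0022) and Iglc3 had r = 0.818 (rho = 0.796, permutation p = 0.00043 and 0.00061, adjusted p = 0.0033 and 0.00484). Without the same 2 mice r was 0.868 and 0.759. Above and below the gap in Igha, r was 0.462 and 0.501 for Iglc1 and 0.455 and 0.405 for Iglc3.

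Ighd did not go with Igha. Their r was 0.296 (rho = 0.339, permutation p = 0.281 and 0.216, adjusted p = 0.517 and 0.447), and 0.191 without the 2 mice farthest in Igha. Ighg3 and Igha gave r = 0.073 (rho = 0.025, permutation p = 0.801 and 0.932, adjusted p = 0.869 and 0.964), and -0.27 without those 2 mice. The brightest Ighm probe lay between, with r = 0.707 to Igha (rho = 0.582, permutation p = 0.0043 and 0.0253, adjusted p = 0.0217 and 0.0971) and 0.547 without those mice. Above and below the gap in Igha it was 0.314 and 0.166, over narrower ranges of Igha.

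Ighd instead varied with several B cell genes. Over the 16 kept genes of the B cell list r with Ighd had a median of 0.849 and ran from -0.17 for Cd22 to 0.982, with Pax5 (0.063) and Spib (0.142) also low. Its r with Ms4a1, which encodes the surface protein CD20, was 0.982 (rho = 0.957), with Cd79b, a signalling chain of the B cell receptor, 0.979 (rho = 0.954), and with Cr2, a complement receptor of B cells, 0.958 (rho = 0.946). All these had a permutation p of 1e-05 for r and rho (adjusted p = 0.000144 and 0.000177). Without DSS vehicle 5 and DSS filgotinib 4, the mice farthest in Ighd, r was 0.975, 0.969 and 0.949. The mice split at a gap in Ighd between 0.129 and 0.279 times: in the 6 above it r was 0.915 for Ms4a1, 0.947 for Cd79b and 0.715 for Cr2, and in the 9 below 0.864, 0.850 and 0.708. Every water mouse lay below the gap, so this split follows the groups in part. The r after removing group means is not given for Ighd, and the part of group differences in these values was not tested. The Ighm probe nearest to the Ighd locus, at position 114656770, had r = 0.953 with Ighd (rho = 0.954, permutation p = 1e-05 for both, adjusted p = 0.000144 and 0.000177). Its r was 0.931 without those 2 mice and 0.877 and 0.716 above and below the gap in Ighd. Over all 33466 kept probes, 90% of the r values lay between -0.47 and 0.45 for Igha and between -0.56 and 0.54 for Ighd. Among kept probes outside the family, the 4 most like Ighd were Ms4a1, Cd79b, Fcmr and Cr2 (r = 0.982 to 0.958), and those most like Igha with a gene name were LOC102642252 (r = 0.981), Fxyd2 (r = 0.914), Rgs10 (r = 0.906), Mzb1 (r = 0.902) and Ltbp4 (r = 0.886). The next were Efemp1 (r = 0.879), Fbn1 (r = 0.878), Rarres2 (r = 0.874), Calcrl (r = 0.865), Cd34 (r = 0.863), Hhip (r = 0.862), Pf4 (r = 0.860) and Plvap (r = 0.857). Ltbp4, Efemp1 and Fbn1 encode matrix proteins and Calcrl, Cd34 and Plvap are known from blood vessel lining, and the part of such tissue in the spread of Igha was not tested. These probes were ranked by their r over the 15 mice, which share the array of each mouse, and the ranking gets no p. Ms4a1, Cd79b, Cr2 and Mzb1 are also genes of the B cell and plasma cell lists. The p-values printed for them come from the relations computed for the lists, not from this ranking.

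**Figure D5:**
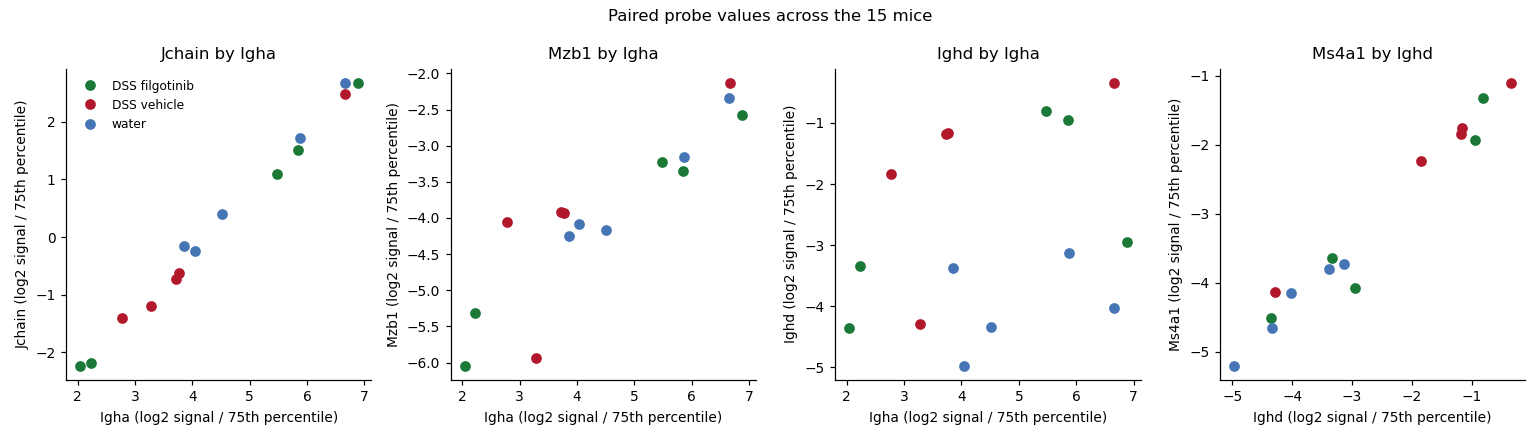
Log2 signal over the 75th percentile of Jchain, Mzb1 and Ighd by Igha, and of Ms4a1 by Ighd, one point for each of the 15 mice, coloured by group. Jchain lies close to a line in Igha (r = 0.996) and Ms4a1 to a line in Ighd (r = 0.982), whereas Ighd scatters over Igha (r = 0.296).

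Variable segments followed the IgA pattern in part, in number and in level. Of 214 variable-segment probes without an outlier mark, 18, 52, 92, 34 and 9 were well above background in the DSS filgotinib mice, 22, 22, 15, 26 and 64 in the DSS vehicle mice, and 95, 45, 43, 49 and 89 in the water mice. The highest mouse of each group was the mouse with the highest Igha, and 4 of 5 DSS vehicle mice had fewer than any water mouse. At like Igha the counts still differed: 45 in water 2 (Igha 14.5 times) against 15 and 26 in DSS vehicle 3 and 4 (13.6 and 13.2 times). Over all probes the share well above background lay between 50.2% and 62.1%, and it was lower in DSS filgotinib 4 and 5 than in any other mouse (52.1% and 50.2%). In water 1, 2, 4 and 5 it was 58.8% to 62.1%, above every DSS mouse (at most 58.6%). The 75th percentile was also higher in every water mouse (684 to 813 units) than in any DSS mouse (552 to 667). The part of these array differences in the counts was not tested.

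Of the 58 kept variable-segment probes, 39 had r of at least 0.8 with Igha over the 15 mice, with a median of 0.881. By name these include the Igh-VJ558 probe, although it lies among the constant-region probes. The probes with the largest gap between the highest mouse and its group's median were Igkv6-15, Igkv5-43 and Igkv4-60 of the kappa locus, the Igh-VJ558 probe, and Ighv1-64 of the heavy locus. Igkv6-15 read 0.0105, 0.0404, 0.201, 0.0289 and 0.0145 times the 75th percentile in DSS filgotinib mice, 0.0124, 0.0146, 0.0135, 0.0103 and 0.218 times in DSS vehicle mice, and 0.0710, 0.0110, 0.0242, 0.0355 and 0.104 times in water mice. DSS vehicle 5 exceeded its group's median by 4.01 on the log2 scale in Igkv6-15, 3.93 in Igkv5-43, 3.82 in Igkv4-60, 3.72 in Igh-VJ558 and 3.54 in Ighv1-64. It is also the mouse with the highest Igha of that group. Of the DSS vehicle mice it alone was well above background for Igkv6-15, Igkv5-43, Igkv4-60 and Ighv1-64, so the values of the other 4 are upper bounds. The gaps of these 4 segments are therefore lower bounds, and the order of the 5 gaps is not settled. For Igh-VJ558 all 5 DSS vehicle mice were well above background.

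A few segments did not vary with the rest. There were 9 kept variable-segment probes with r under 0.5, and 6 of these were well above background on all 15 arrays: 2 probes of Igkv4-72 and one each of Igkv8-19, Igkv1-35, Igkv3-4 and Ighv10-3. One Igkv4-72 probe read 0.384, 0.315, 0.320, 0.358 and 0.391 times in DSS filgotinib mice, 0.337, 0.367, 0.352, 0.362 and 0.329 times in DSS vehicle mice, and 0.372, 0.319, 0.357, 0.318 and 0.316 times in water mice. Its range was 1.24-fold while that of Igkc was 17.2-fold. The other Igkv4-72 probe gave 0.35 in DSS filgotinib against water (adjusted p = 0.0568) and 0.34 in DSS filgotinib against DSS vehicle (adjusted p = 0.0639). Igkv8-19 gave 0.42 (adjusted p = 0.0583) and 0.33 (adjusted p = 0.116) in the same comparisons. In a fit limited to the 27133 probes well above background on all arrays, 16 of them immunoglobulin probes, these 2 probes rose in DSS filgotinib against water, where 6.94% of all probes in that fit rose.

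B cell genes were called in the comparison in which Ighg3 rose. Of 20 B cell genes listed, 16 were kept, and 6 rose in DSS vehicle against water (8.72% of all kept probes rose) and 0 fell (8.78% of all), with a median over the kept genes of 1.46 beside 0.021 over all kept probes. Among them, Ms4a1 rose by 2.09 (adjusted p = 0.0371), Ciita, the regulator of MHC class II genes, by 1.67 (adjusted p = 0.00778), and Cr2 by 1.64 (adjusted p = 0.0421). Ms4a1 was well above background in 4 DSS filgotinib, 5 DSS vehicle and 4 water mice. In DSS filgotinib against DSS vehicle 0 rose (5.58% of all) and 2 fell (4.28% of all), Ciita by 1.27 (adjusted p = 0.0438) and Cd22, an inhibitory receptor, by 0.30 (adjusted p = 0.00616). Against water, 2 rose (4.56% of all) and 1 fell (4.06% of all) in DSS filgotinib mice. The summed level of the list lay at 71.8 to 96.8 in the DSS filgotinib group, at 82.4 to 88.9 in the DSS vehicle group and at 61.2 to 69.5 in the water group. Such sums, here and below, are of linear signal, in which the brightest genes weigh most. The B cell genes Cd79a, Blk, Fcrla and Bank1 were not kept.

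Plasma cell genes gave less. Of 18 listed 15 were kept, and 2 rose in DSS vehicle against water, where 8.72% of all kept probes rose: Prdm1, a factor that drives plasma cell formation, by 1.07 (adjusted p = 0.00777) and Cd38, a surface enzyme of many immune cells, by 0.76 (adjusted p = 0.00623). None fell, where 8.78% of all did, and the median was 0.16. Cd38 fell by 0.70 in DSS filgotinib against DSS vehicle (adjusted p = 0.0158), and in DSS filgotinib against water Xbp1, a factor of secretory cells, rose by 0.34 (adjusted p = 0.0197). The list did not follow Igha as a whole: its median r was -0.062, over a range of -0.43 to 0.90. Mzb1, a helper of antibody folding, had r = 0.902 with Igha (rho = 0.861, permutation p = 1e-05 and 0.00011, adjusted p = 0.000144 and 0.00115), 0.867 without the 2 farthest mice and 0.876 and 0.681 above and below the gap. Derl3, a protein of the endoplasmic reticulum, had r = 0.836 (rho = 0.786, permutation p = 0.0002 and 0.00091, adjusted p = 0.00164 and 0.00654), 0.774 without those mice and 0.533 and 0.218 above and below the gap. The summed level lay at 131 to 163 in the DSS filgotinib group, at 130 to 143 in the DSS vehicle group and at 115 to 139 in the water group. Xbp1 alone gave 41.9 to 60.9 of it per mouse, with r = -0.062 to Igha, so the sum is no measure of plasma cells. Irf4, Tnfrsf17 and Slamf7 were not kept.

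Germinal centres are where B cells mutate and switch class. Of 15 genes listed for them 11 were kept, and 5 fell in DSS vehicle against water (8.78% of all kept probes fell) while 0 rose (8.72% of all), with a median of -0.54. Rgs13, a signalling regulator, fell by 2.38 (adjusted p = 0.00165), Exo1, a DNA repair exonuclease, by 2.31 (adjusted p = 0.000761) and Mybl1, a transcription factor, by 1.03 (adjusted p = 0.00574). Rgs13 was well above background in 4 DSS filgotinib mice, 1 DSS vehicle mouse and 5 water mice, and Mybl1 in 1, 1 and 5, so the sizes of their changes rest in part on values that are upper bounds. Exo1, well above background in all mice, and Mybl1 also act outside germinal centres. Which cells of the scraping gave the Rgs13 signal was not tested, so it cannot be read as a measure of germinal centres. Rgs13 rose in DSS filgotinib against DSS vehicle by 2.08 (adjusted p = 0.00721), the one called gene of the list there (5.58% of all rose), and S1pr2 and Exo1 fell in DSS filgotinib against water (4.06% of all fell).

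Chemokines and receptors of lymphoid follicles were called in the same comparison. Of 7 listed 6 were kept, and 3 rose in DSS vehicle against water, where 8.72% of all kept probes rose: Ccl21a by 3.05 (adjusted p = 0.0445), its receptor Ccr7 by 2.14 (adjusted p = 0.00186) and Cxcl13, which draws B cells into follicles, by 2.09 (adjusted p = 0.00154). Cxcl13 fell by 1.32 in DSS filgotinib against DSS vehicle (adjusted p = 0.0292) and Ccr7 by 1.28 (adjusted p = 0.0408), while Ccl20 rose by 0.80 (adjusted p = 0.0451), where 4.28% of all fell and 5.58% of all rose. Ccr7 was well above background in 3 DSS filgotinib, 5 DSS vehicle and 4 water mice. The summed level lay at 3.95 to 8.79 in the DSS filgotinib group, at 3.67 to 9.51 in the DSS vehicle group and at 2.88 to 5.45 in the water group. The median of the list's r with Ighd was 0.771, and with Igha 0.195. The part of follicle tissue in each scraping was not tested.

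Of genes for IgA induction and plasma cell homing, 13 of 18 were kept and 2 rose in DSS vehicle against water (8.72% of all kept probes rose), Ltb by 1.28 (adjusted p = 0.0179) and Itgb7, an integrin of gut-homing lymphocytes, by 1.25 (adjusted p = 0.0116). In the other comparisons 0 were called, where 5.58% of all rose and 4.28% fell between DSS filgotinib and DSS vehicle and 4.56% rose and 4.06% fell in DSS filgotinib against water. Of genes for switching to IgE, IgG1 and IgG2, 6 of 9 were kept and 3 rose in DSS vehicle against water (8.72% of all), among them Gata3, well above background in 3 DSS filgotinib, 5 DSS vehicle and 3 water mice, by 1.90 (adjusted p = 0.0137) and the receptor chain Il4ra by 1.22 (adjusted p = 0.000893). Il4ra also rose in DSS filgotinib against water (0.68, adjusted p = 0.0365). The 10 kept of 12 genes for immunoglobulin transport and Fc receptors, Pigr among them, gave 0 calls in any comparison, against the same shares of all probes. Nor were any of the 6 kept of 8 T cell genes or the 5 kept of 6 red blood cell genes called. Of the 10 colon epithelium genes 3 rose in DSS vehicle against water (8.72% of all), Car1 by 0.52 (adjusted p = 0.0316), Muc2 by 0.34 (adjusted p = 0.0192) and Krt8 by 0.31 (adjusted p = 0.00781), and 0 were called in the other comparisons.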

How the data were processed

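Agilent single-colour arrays of 15 mice were analysed from the scanner output. Per the file headers, the authors extracted each probe's intensity with Feature Extraction 11.5.1.1, background-subtracted, with mm9 coordinates. The series also holds the authors' deposited table of log2 values, used as an alternative; the submitters' processing notes name limma. Control spots and 101 probes with an outlier mark were left out. The log2 of the processed signal minus the array's 75th percentile was fitted with limma 3.58.1 in R 4.3.3 over 33466 probes well above background on 5 or more arrays, all 15 mice in one fit, with Benjamini-Hochberg adjustment at 0.05. The fit was tested on simulated data. Exact permutations compared single ratios between groups of 5 (252 regroupings, smallest p 0.00794), and 100000 permutations were used for correlations. No label says whether mice shared a cage or litter, and precision is set by having 5 arrays a group. Of the immunoglobulin probes none was saturated, 1 carried an outlier mark, and 6 described by a database accession alone were not used.

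The members and gene lists were chosen with earlier results of these data known. Named were the brightest kept probe of each constant-region gene and of Jchain, called segments, the 5 variable-segment probes with the largest gap between the highest mouse and its group's median, and up to 4 called genes of a list. The Igh-VJ558 probe, the remaining probes of Ighm and Igkv4-72, the segments with a low correlation and the probes most like Igha or Ighd were named after their values were seen, as was the split of mice at 30 times the 75th percentile for Igha and 0.2 times for Ighd. Alternatives were normexp background correction (offset 50), quantile or median scaling, the deposited table, filters on dim probes, 1 probe per gene, slide or scan day (4 days) as a block, a replicate block, fits of 2 groups, and each mouse left out. Same-numbered mice of different groups did not deviate together, so the numbers were not taken as pairs. A few genes of the lists are not reported here.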

Additional observations from a re-analysis of the deposited data

Results flagged for a closer look

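In the DSS vehicle group mouse 5 stood far from its 4 group mates in 4 of the probes named here. Its Igha signal was 102 times the array's 75th percentile, against 13.6 times in the next mouse. Its Igkc signal was 22.5 times, against 4.79 times in the next mouse, and its Jchain signal 5.55 times, against 0.645 times. The probe named Igh-VJ558 read 0.982 times in it, against 0.0971 times in the next mouse. In each of these the gap to the nearest mouse took more than 0.710 of the group's range on the log2 scale, the limit of Dixon's test for 5 samples. These 4 probes vary together across all mice, so they are not separate observations. Of 39 groups examined in this way 4 passed, and chance passes about 1 in 20.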

How the results depend on the processing

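The count of probes that rose in DSS vehicle against water, 1 in the main setting, was 0 with slide as a fixed block, for the 13 probes found by gene name and for all 237. For all 237 it was 6 with normexp background correction, 3 without a filter on dim probes, 4 in a fit of the 2 groups compared alone, and 1 to 4 with single mice left out (2 without DSS filgotinib 4 or 5, 4 without DSS vehicle 2). The count that fell in DSS filgotinib against DSS vehicle, 1, was 0 with normexp and in a fit of those 2 groups alone, in both sets of probes; the count that rose was 0 to 1 with mice left out (1 without DSS filgotinib 3 or 4). The count that rose in DSS filgotinib against water, 0, was 3 of 13 without a filter and, for all 237, 11 with normexp, 46 without a filter, 2 among probes well above background on all 15 arrays, and 0 to 1 with mice left out (1 without DSS filgotinib 2, 3 or 4). Without a filter the median of all probes moved by 0.107 in DSS vehicle against water and by 0.119 in DSS filgotinib against water, where 20.6% of all probes then rose. With normexp 81.1% of the calls over all probes in DSS filgotinib against water were rises, with no filter 84.4%, against 52.9% in the main setting. The cause of these differences was not tested.

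The IgM minus IgA difference kept its direction in all alternatives but lost its call in some. In DSS vehicle against water it was 1.82 with normexp (adjusted p = 0.143, exact permutation), 2.35 with the mean over every kept probe (adjusted p = 0.0952), and 1.83 to 2.40 with mice left out. Against water the DSS filgotinib values were 1.39 (adjusted p = 0.238), 1.3 (adjusted p = 0.238) and 1.21 to 1.67. The lambda minus kappa difference in DSS filgotinib against water ran from -0.48 to 0.12 with mice left out.

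With slide as a fixed block, the log2 fold changes that changed sign were, in DSS vehicle against water, Ighm -0.22, Ighd -0.56, Ighg2b -1.04, Ighg2c -0.45 and Iglc3 -1.52. For DSS filgotinib against DSS vehicle they were Igha -0.35, Igkc -0.45 and Jchain -0.45. For DSS filgotinib against water they were Ighm -1.14, Ighd -1.58, Ighg2b -2.47, Ighg3 -0.81 and Iglc3 -2.53. This block rests on the 2 slides with mice of different groups. Elsewhere Ighm changed to 0.000362 with normexp in DSS filgotinib against DSS vehicle, and in DSS filgotinib against water Ighg2b to -0.035 with slide as a random block and Ighg2c to 0.24 with normexp and 0.0058 with the deposited table. None of these values was called. With mice left out, ranges that crossed 0 in DSS filgotinib against DSS vehicle were Ighm -0.55 to 0.21, Igha -0.14 to 1.11, Igkc -0.22 to 0.83, Iglc3 -0.73 to 0.26, Jchain -0.16 to 1.16 and Igh-VJ558 -0.023 to 1.63. Likewise against water they were Ighg2b -0.13 to 0.38, Ighg2c -0.29 to 0.26, Igha -1.09 to 0.12, Igkc -0.98 to 0.046, Iglc1 -0.99 to 0.033 and Iglc3 -0.077 to 0.73.

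With the replicate number as a replicate block the Ighg3 differences were 0.91 (adjusted p = 0.0201) and -0.84 (adjusted p = 0.0438), and the counts of member calls did not change. Same-numbered mice correlated at -0.47 to 0.50 in their deviations from group means. The limits are those of 5 mice a group, of slides that mostly hold 1 group, of probes rather than sequences as the unit, and of the dim probes, for which a signal near background compresses any difference.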
